A study of Mus musculus with 1 sample.

Results

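Cytosolic ribosomal protein genes encode the proteins that, with ribosomal RNA, form the large and the small subunit of the ribosome. Members were protein-coding genes with an Rpl, Rps, Rplp or Rpsa symbol in GENCODE M21. Genes with Rps6k symbols, which encode kinases, and symbols holding "-ps" were left out. The rule found 86 of the 54532 genes in the table. They were 46 large subunit genes, 31 small subunit genes, 8 paralogs of such genes, and Rps19bp1, whose product binds a ribosomal protein and is not one. The 46 and 31 genes are called core genes here.

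The values came from 1 RNA-seq library of Ctrl mice, which were wild type on the C57BL/6 strain. Sorted c-kit+ cells of the bone marrow were the source, with a gate written as lineage-negative, cKit-positive and Sca1-negative. The age, sex and number of mice behind the library were not given in the labels. No library of Gadd45g-deficient mice was analysed here, and there was no other group, no replicate and no test between samples. The unit is FPKM, which divides a gene's fragments by its length and by the depth of the library. Intervals in brackets are 95% Wilson intervals from recovered fragments, and they cover counting error only.

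The library held genes of cells that the gate does not name. Kit, the receptor used in the sort, was at 7.17 FPKM, Cd34 at 5.22 FPKM, Mpo at 434 FPKM, Gata1 at 50.3 FPKM and Ly6a, which encodes Sca1, at 28.5 FPKM. All 5 neutrophil markers lay between 2069 and 26677 FPKM and took 11.6% of the summed FPKM. The 4 erythroid markers lay between 1037 and 25466 FPKM and took 9.79%. The 4 B cell markers ranged from 47.2 to 4323 FPKM, the 3 macrophage markers from 29.9 to 47.4 FPKM and the 3 T cell markers from 2.62 to 8.55 FPKM. The part of these cells in the levels given here was not tested. In a bulk library, fewer cells of a type and less RNA per cell cannot be told apart.

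The small subunit decodes messenger RNA, and the large subunit joins amino acids and carries the stalk to which translation factors bind. Each protein is present in one copy per ribosome, apart from the stalk proteins, so their genes are often read as a coordinated group. Many of their transcripts begin in a run of C and T, the 5′ terminal oligopyrimidine motif, through which mTOR signalling controls their translation. Loss of a single copy of several of these genes causes Diamond-Blackfan anaemia, a failure of red cell production in the marrow.

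The coding sequences of Rps27 and its paralog Rps27l are shown because they are the pair of highest coding identity among the parent and paralog pairs with 4 exons each. They span chr3:90212728-90213615 on the minus strand and chr9:66946175-66949354 on the plus strand of GRCm38. Capitals mark the bases that differ, 60 of 252.
Rps27: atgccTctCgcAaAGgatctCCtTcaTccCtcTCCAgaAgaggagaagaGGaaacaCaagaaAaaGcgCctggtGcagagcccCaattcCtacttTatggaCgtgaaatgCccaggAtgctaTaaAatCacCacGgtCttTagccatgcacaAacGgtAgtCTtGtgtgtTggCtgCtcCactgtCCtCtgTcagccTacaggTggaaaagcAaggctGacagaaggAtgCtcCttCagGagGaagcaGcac
Rps27l: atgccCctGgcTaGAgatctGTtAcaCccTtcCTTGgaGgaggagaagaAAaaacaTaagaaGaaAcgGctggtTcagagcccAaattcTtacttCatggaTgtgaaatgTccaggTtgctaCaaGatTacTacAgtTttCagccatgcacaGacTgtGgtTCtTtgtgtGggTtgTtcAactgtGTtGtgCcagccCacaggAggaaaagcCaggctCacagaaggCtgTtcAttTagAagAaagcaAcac

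Rps10, a small subunit gene at 1.86 FPKM, is shown beside its processed pseudogene Rps10-ps2, a copy without introns, since far more fragments were assigned to the copy. The coding sequence of Rps10 spans chr17:27630468-27634475 on the minus strand of GRCm38, and the copy lies at chr16:20822145-20822640 on the minus strand. Bases 384 to 473 of the coding sequence hold all 5 differences among the 495 aligned bases, which are in capitals.
Rps10: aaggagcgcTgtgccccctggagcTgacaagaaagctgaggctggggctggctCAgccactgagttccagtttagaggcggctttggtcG
Rps10-ps2: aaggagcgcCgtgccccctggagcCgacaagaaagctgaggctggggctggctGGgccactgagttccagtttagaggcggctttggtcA

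Start site windows of 30 bases are shown for the 2 highest genes with a window, the 2 lowest, and 2 with long runs, to set the pyrimidine run beside the level. They were read from RefSeq promoters of GRCm38.p6, in which 57 of the 77 core genes had an entry. Capitals mark the longest run of C and T that touches the window. The windows are chr5:115559452-115559481 on the plus strand for Rplp0, chr3:86142654-86142683 on the minus strand for Rps3a1, chr16:55966260-55966289 on the plus strand for Rpl24, chr17:27635230-27635259 on the minus strand for Rps10, chr2:26910792-26910821 on the plus strand for Rpl7a and chr7:109519180-109519209 on the plus strand for Rpl27a.
Rplp0: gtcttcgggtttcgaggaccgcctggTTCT
Rps3a1: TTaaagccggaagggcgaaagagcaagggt
Rpl24: agaaagCTgttgctaggaaacagactgggc
Rps10: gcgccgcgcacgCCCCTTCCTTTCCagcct
Rpl7a: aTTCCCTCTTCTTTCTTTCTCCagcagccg
Rpl27a: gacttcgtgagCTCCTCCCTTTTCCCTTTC

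Core genes were among the most abundant messages of the library. All 77 reached 1 FPKM, where 46.8% of protein-coding genes and 22.2% of all genes did. At or above 100 FPKM were 66 of 77, against 2.06% of protein-coding genes. By rank over the whole table, 21 core genes were in the top 100 and 72 in the top 1000. Together they took 5.60% of the summed FPKM, 3.25% from the large and 2.35% from the small subunit. As fragments they took 648688, or 3.79% of the 17113323 recovered fragments (3.78 to 3.80). The bracket does not cover the choice of total, and the step of the FPKM values corresponds to a smaller one of 15783891. The median level was 240 FPKM with quartiles of 137 and 385 FPKM, and 50 genes lay within 2-fold of the median.

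The large subunit had the lower median, and the levels of both subunits covered much the same range. The large subunit had a median of 214 FPKM with quartiles of 148 and 362 FPKM. The small subunit had a median of 286 FPKM with quartiles of 132 and 414 FPKM, which gives a large to small ratio of 0.747. Of the 46 large subunit genes, 32 were below the small subunit median, and 19 of the 31 small subunit genes were above the large subunit median. The means were 303 and 325 FPKM. The SD of log2 FPKM over genes was 1.63 and 1.67, which describes unlike genes and is not an error of the medians. With 1 library, the difference between the subunits has no replicate check.

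**Figure D1:**
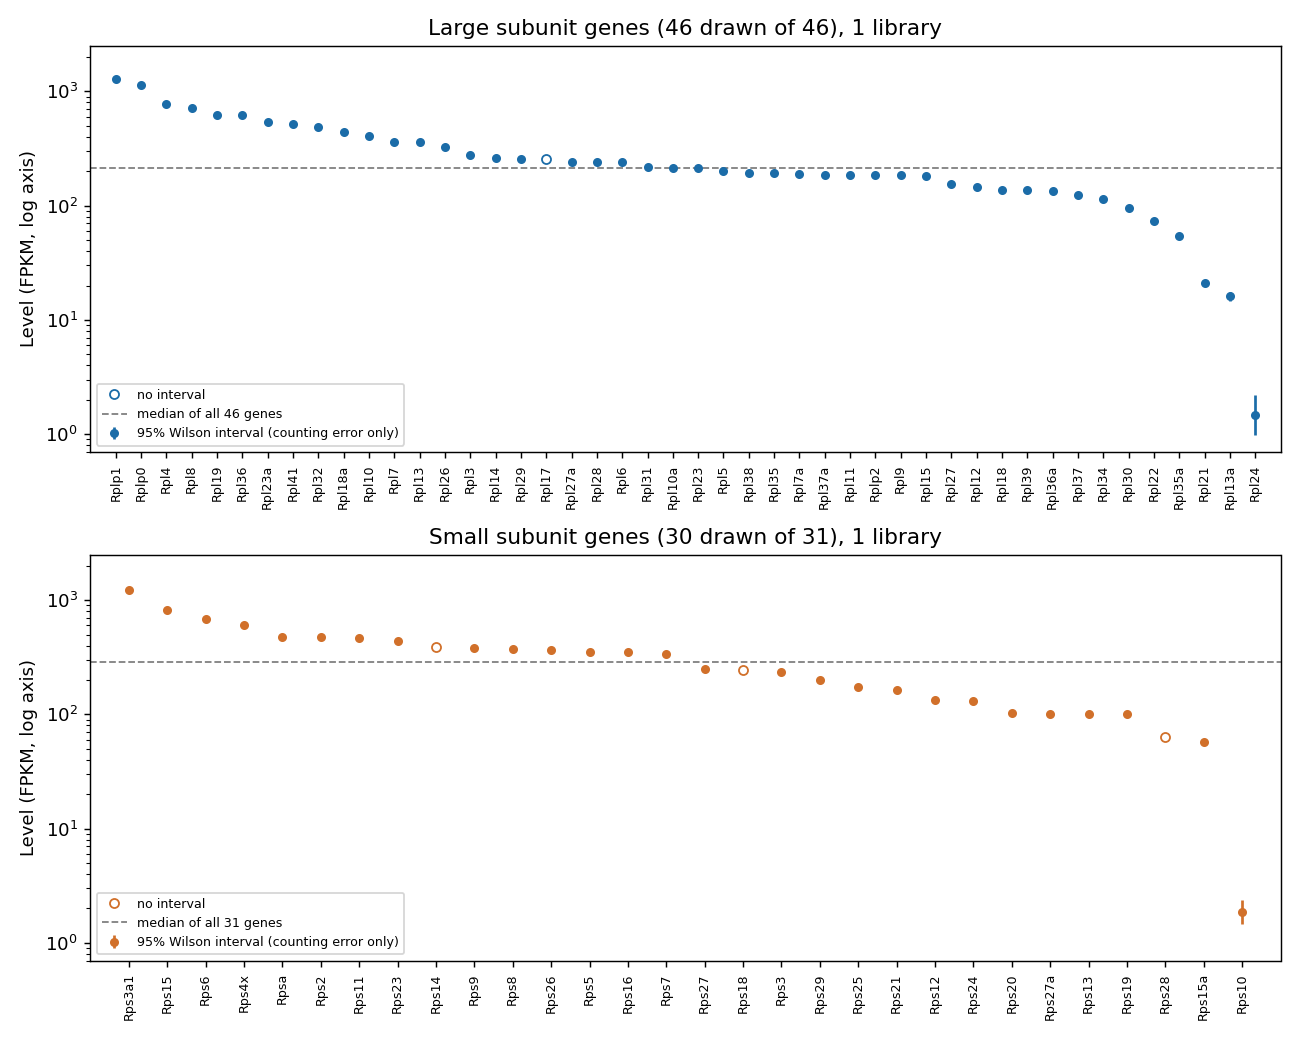
Level of each core gene in FPKM on a log axis, ordered within the large (46 genes) and small (31 genes) subunit of 1 library, with 95% Wilson intervals where fragments could be recovered and the median over all genes of the subunit as a dashed line (214 and 286 FPKM); 1 small subunit gene is not drawn. Most genes lie between 100 and 1276 FPKM, and Rpl24 and Rps10 stand far below the rest at 1.48 and 1.86 FPKM.

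Stalk genes headed the large subunit. Rplp1, one of the acidic stalk proteins, was at 1276 FPKM (1251 to 1301) and Rplp0, which anchors the stalk to the subunit, was at 1144 FPKM (1131 to 1157). With representative transcript lengths Rplp0 (1397) was above Rplp1 (1276). Rplp2, which pairs with Rplp1, was at 184 FPKM (180 to 189), so Rplp1 was 6.92 times higher. Rplp2 has 2072 bases of annotated exon and a representative transcript of 964 bases, and with transcript lengths the ratio was 3.22. It was 3.22 or 1.41 depending on which of 4 rules chose the transcript, so the size of the gap rests on the length used.

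The next large subunit genes were Rpl4 at 782 FPKM (772 to 791), Rpl8 at 723 FPKM (711 to 734) and Rpl19 at 622 FPKM (610 to 635). Rpl4 lines the tunnel through which the new peptide leaves. Rpl41, which has the shortest coding sequence of the group at 75 bases, was at 521 FPKM (511 to 532). The order of these genes rests on the length of all exons. With representative transcript lengths Rpl13 (1200), Rpl8 (1154), Rpl41 (1119) and Rpl10 (1039) were above Rpl4 (1020). Rpl19 was then at 847.

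At the lower end of the large subunit were Rpl22 at 72.8 FPKM (70.3 to 75.3), Rpl35a at 54.1 FPKM (52.2 to 56.1), Rpl21 at 21.2 FPKM (20.04 to 22.5), Rpl13a at 16.1 FPKM (14.8 to 17.5) and Rpl24 at 1.48 FPKM (0.99 to 2.20). Rpl24 rested on 24 fragments and Rpl13a on 536. The intervals of these 5 genes did not overlap, so their order on this scale is outside counting error. It did not hold with fragments of annotated near-identical copies, described further on, added to each gene. Rpl21 (71.0) was then above Rpl35a (58.1). With representative transcript lengths Rpl22 and Rpl35a were at 447 and 389 and no longer among the 5 lowest. Rpl37 (248) and Rpl35 (252) took their places.

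Rps3a1 had the highest FPKM of the small subunit at 1221 FPKM (1204 to 1238). It was followed by Rps15 at 826 FPKM (808 to 844), Rps6 at 683 FPKM (672 to 693), Rps4x at 601 FPKM (592 to 611) and Rpsa at 473 FPKM (467 to 479). Rps6 encodes the protein phosphorylated by S6 kinases, and Rps4x is an X-linked member. Rpsa, also known as the laminin receptor, and Rps2, at 473 FPKM too, did not differ beyond counting error. This order rests on the length of all exons: with representative transcript lengths Rps14 (1546), Rps9 (1287) and Rps6 (1233) were above Rps3a1 (1221), and Rps18 (1080) was above Rps15 (1040.4).

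The lowest small subunit genes were Rps13 at 99.9 FPKM (97.0 to 103), Rps19 at 99.9 FPKM (97.6 to 102), Rps28 at 63.1 FPKM, Rps15a at 57.1 FPKM (55.6 to 58.6) and Rps10 at 1.86 FPKM (1.47 to 2.36) on 68 fragments. Rps13 and Rps19 could not be separated at this depth. With representative transcript lengths they were at 457 and 605 and no longer among the 5 lowest. With fragments of annotated copies added, Rps10 (91.0) was above Rps28 (76.1) and Rps15a (58.0). Rps28, with Rpl17, Rps14 and Rps18, is on chromosome 17 or 18 and has no interval, because its value was not a whole multiple of the library's step.

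The 22 core genes known in Diamond-Blackfan anaemia were spread over the range. Their median was 185 FPKM, from Rps10 at 1.86 to Rps26 at 369 FPKM, and 17 of 22 reached 100 FPKM. The other 55 core genes had a median of 259 FPKM and a highest of 1276 FPKM, and 49 reached 100 FPKM. With representative transcript lengths the 2 medians were 535 and 612. Rps19, the gene most often mutated in the disease, was at 99.9 FPKM. Of the large subunit genes on the list, Rpl26 was highest at 325 FPKM and Rpl35a lowest at 54.1 FPKM. Rpl5 at 199 FPKM (196 to 203) and Rpl11 at 185 FPKM (181 to 190), whose products bind Mdm2 together with 5S RNA, had intervals that did not overlap on this scale. Their order turned with representative transcript lengths, at 382 for Rpl5 and 600.2 for Rpl11. Rps7, Rps27 and Rps29 were at 340, 250 and 202 FPKM. Rps24, Rps20, Rps15a and Rps28 were lower, at 131, 102, 57.1 and 63.1 FPKM. Rpl17, Rpl31, Rpl35, Rpl9, Rpl15, Rpl27 and Rpl18 lay between 137 and 256 FPKM.

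Some ribosome parts carry symbols the rule does not find. Fau, a fusion of a ubiquitin-like protein with a small subunit protein, was at 703 FPKM and Rack1, a scaffold on the small subunit, at 196 FPKM (193 to 199). The ubiquitin fusion gene Rps27a, a member, was at 101 FPKM (97.6 to 105).

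Levels of cytosolic ribosomal protein genes were set beside other translation genes. The 78 genes for mitochondrial ribosomal proteins had a median of 9.69 FPKM, with 77 at or above 1 FPKM, none at 100 FPKM and a highest of 54.8 FPKM. The core median was 24.8 times theirs. Their SD of log2 FPKM was 1.12 over the 77 genes above 0, against 1.64 over all core genes. It was 1.10 over the 74 core genes without much same-strand overlap, described further on. The mitochondrial genes were not filtered for overlap. With representative transcript lengths the SD was 1.53 over all core genes and 1.16 over the mitochondrial genes. Since the filter moved the core value, no difference in spread is drawn. The 25 ribosome biogenesis factors had a median of 15.8 FPKM, from Wdr12 at 2.47 to the nucleolar chaperone Npm1 at 160 FPKM, and 1 reached 100 FPKM. The 15 translation factors had a median of 101 FPKM, from the cap-binding factor Eif4e at 14.3 to the elongation factor Eef1a1 at 2437 FPKM, and 8 reached 100 FPKM.

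**Figure D2:**
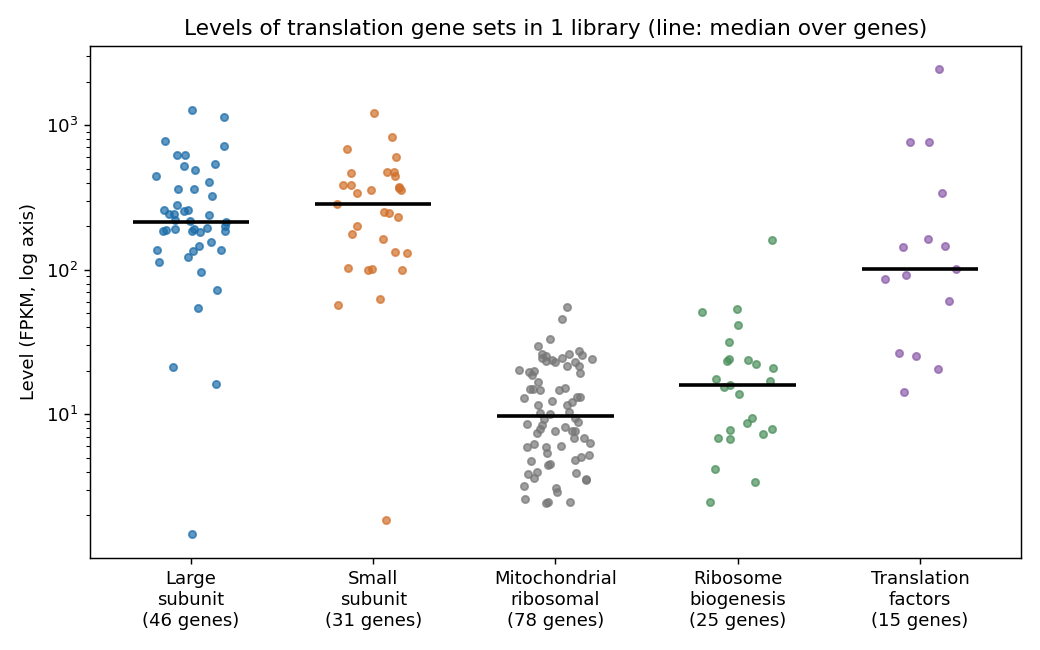
Level in FPKM on a log axis of each gene of 5 translation gene sets in 1 library, with the median over genes as a line; 1 mitochondrial gene listed at 0 is not drawn. The large (214 FPKM) and small (286 FPKM) subunit medians lie above those of translation factors (101), biogenesis factors (15.8) and mitochondrial ribosomal genes (9.69).

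Paralogs were lower than their parent genes in each of the 8 pairs, by unequal amounts. Rpl3l, a muscle form of Rpl3, was at 0.386 FPKM (0.209 to 0.710) against 279 FPKM. Rpl39l, a testis form, was at 0.381 FPKM (0.163 to 0.892) against 136 FPKM for Rpl39. Rpl10l, also a testis form, was listed at 0, and 3 fragments would have given 0.186 FPKM, against 404 FPKM for Rpl10. These 3 genes were the members under 1 FPKM.

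Rpl36al was at 1.73 FPKM (1.26 to 2.39) and its parent Rpl36a at 136 FPKM. The paralogs Rpl7l1 at 24.2 FPKM (22.9 to 25.5) and Rpl22l1 at 23.9 FPKM (22.2 to 25.7) were in the middle of the range. Rpl22 was 3.05 times its paralog, and 5.19 times with representative transcript lengths. Rps27l was at 59.1 FPKM (55.0 to 63.4), and Rps27 was 4.24 times higher, or 7.83 times with representative transcript lengths.

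Rps27rt, a gene of 1 exon whose 252 coding bases are identical to those of Rps27, was at 131 FPKM (122 to 141) against 250 FPKM (243 to 258) for Rps27. Fragments within the coding sequence cannot be told apart between them, so both values are uncertain. The ratio of 1.91 became 5.77 with representative transcript lengths. Coding identity to the parent was 54.0% for Rpl7l1, 68.2% for Rpl22l1, 73.2% for Rpl3l, 76.2% for Rps27l, 84.7% for Rpl10l, 84.97% for Rpl39l and 87.7% for Rpl36al. Rps19bp1 was at 11.1 FPKM.

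The 3 lowest core genes were also the 3 whose transcripts shared most sequence positions with another gene on the same strand. Of the representative transcript, 71.5% of Rpl24 lay under exons of Gm28037, 59.3% of Rpl13a under exons of Gm45713 and 53.6% of Rps10 under exons of RPS10-NUDT3, all on the same strand. The 3 other genes were listed at 0. Rpl19, at 10.7% with a miRNA gene, was the only other core gene with any same-strand overlap. The paralog Rpl36al had 63.1% with Gm49383, which was also listed at 0. Over all protein-coding genes, 407 of 21916 (1.86%) had 50% or more, with a median of 0 FPKM against 0.681 FPKM for the others. Without these 3, the 74 core genes ran from 21.2 to 1276 FPKM, a 60.0-fold range in place of 864-fold, and the SD of log2 FPKM was 1.10. How the authors' counting treated fragments on shared exons is not given in the sources used here, and the part of the overlap in the low values was not tested.

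Exons of other genes on the opposite strand were found for 10 core genes. One of them was Rps10, at 10.03%, and the 3 with 40% or more were Rpl35 (68.3%), Rpl23a (55.4%) and Rpl5 (46.6%), at 192, 538 and 199 FPKM. Whether counting used strand is not given in the sources used here. The share of all protein-coding genes with opposite-strand exons is not given here, so the count of 10 is not read as a trait of core genes.

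Nearly all core genes had annotated near-identical copies elsewhere in the genome, and a part of the fragments was assigned to the copies. Copies were found for 75 of 77 core genes, all but Rpl8 and Rps3, with a median of 12 copies a gene. Rpl7a had 102, Rpl29 had 88 and Rpl21 had 85. Of 1256 copies of core genes in the table, 397 had fragments, 191 reached 1 FPKM and 15 reached 100 FPKM. Their 57387 fragments were 8.85% of those on the core genes.

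For 4 core genes the copies held more fragments than the gene. They were Rps10 with 3250 on copies and 68 on the gene, Rpl24 with 119 and 24, Rpl17 with 7476 and 5371, and Rpl21 with 2669 and 1140. The sequences of Rps10 and Rps10-ps2 printed above differ at 5 of 495 bases, and 3056 of the 3250 fragments were on this copy, which stood at 390 FPKM. Rpl17-ps10, 99.3% identical to Rpl17, was at 552 FPKM with 4839 fragments. Rps12-ps3, identical to Rps12 over 450 bases, was at 340 FPKM against 133 FPKM for Rps12, which stood at 546 with its representative transcript length. Fragments of such pairs may have been split between them, and values of genes with close copies are uncertain for that reason.

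**Figure D3:**
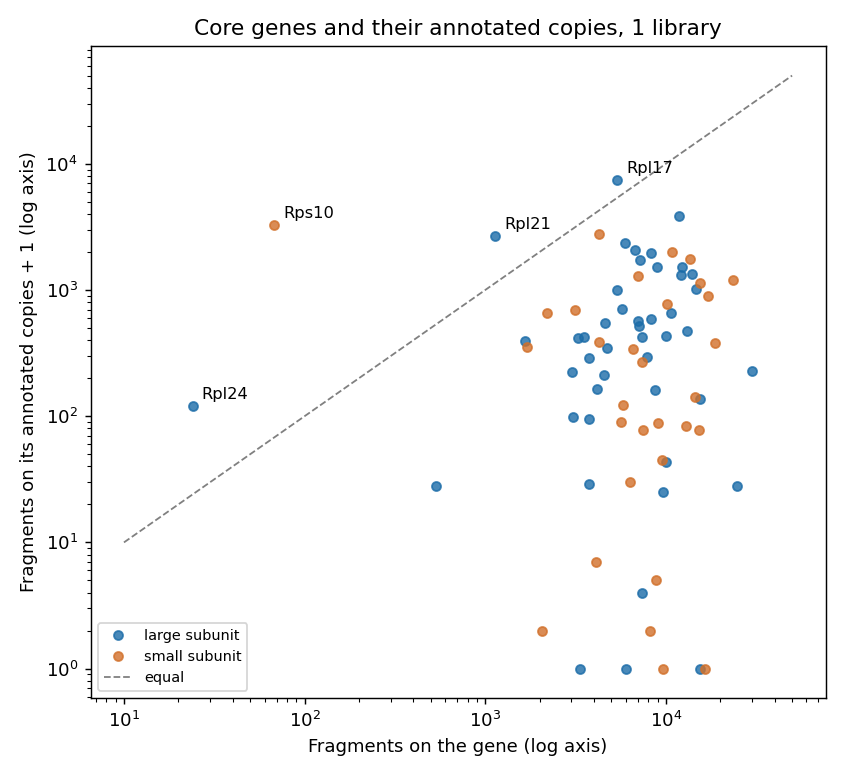
Fragments on each of the 77 core genes (x, log axis) against fragments on its annotated copies plus 1 (y, log axis) in 1 library, with equality as a dashed line. Rps10, Rpl24, Rpl17 and Rpl21 lie above the line, and the other 73 lie below it.

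The deposited scaling divides by the length of all annotated exons of a gene, which for core genes was often far longer than one messenger RNA. The median exon length was 1781 bases and that of a representative transcript 774 bases. The ratio of both lengths had a median of 2.28 and was over 2 for 46 of 77 genes. It was highest for Rpl35a, at 7.18. Annotated transcripts with a retained intron were present for 61 core genes. The shares over all protein-coding genes are not given here, so these counts are not read as traits particular to core genes. Over the 77 genes, Spearman's correlation coefficient of FPKM with this ratio was −0.55 and with exon length −0.48, given as a description, since the level and the ratio share the exon length.

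With the length of the representative transcript in place of that of all exons, the core median was 599, the large subunit median 571 and the small subunit median 738 on the same scale of fragments by length and depth. The ratio of the medians was then 0.773, and 60 genes lay within 2-fold of the median. All fragments of a gene were kept, also any on exons outside the chosen transcript. Levels on this scale could therefore rise or stay, and none could fall. Rpl18 moved from 137 to 815, Rps19 from 99.9 to 605 and Rpl35a from 54.1 to 389. Rpl24 at 2.25 and Rps10 at 4.86 were still the lowest. This scale rests on the transcript chosen: 4 rules for choosing it were tried in turn, and over them the ratio of the medians ran from 0.682 to 0.795 and the correlation of FPKM with the length ratio from −0.63 to −0.43. Rps15a and Rps20 have representative transcripts of 5130 and 3706 bases under the rule used, and they stayed low at 69.8 and 112.

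**Figure D4:**
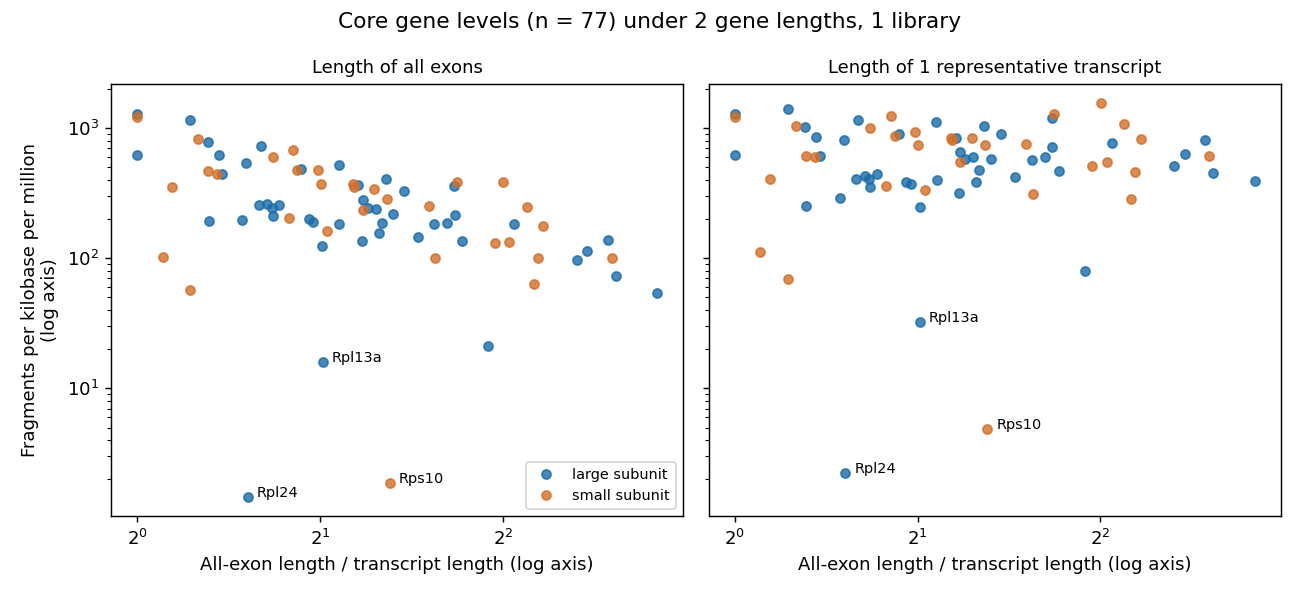
Level of the 77 core genes (y, log axis) against the ratio of all-exon length to representative transcript length (x, log axis), with the level scaled by all exons on the left and by the transcript on the right, in 1 library. The Spearman correlation with the ratio is −0.55 on the left and −0.01 on the right, and the 3 named genes with same-strand overlap lie lowest on both.

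Among core genes, 2 features that the rule did not use were more frequent than among protein-coding genes at large. Small nucleolar RNAs, which guide modification of ribosomal RNA and are cut from introns, were annotated inside 30 of 77 core genes (39.0%), 20 large and 10 small, with 58 in all. Among protein-coding genes at 1 FPKM or above, 182 of 10288 (1.77%) hosted one. The median level was 242 FPKM with a small nucleolar RNA and 219 FPKM without, an order that turned with representative transcript lengths (547 and 619).

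A run of 8 or more C or T bases touched the 15 bases on either side of the RefSeq start in 29 of 57 core genes (50.9%), against 3304 of 16507 protein-coding genes (20.02%). For a gene with several start sites, that with the longest run was used. Over all start sites the counts were 30 of 67 (44.8%) and 3504 of 20135 (17.4%). The protein-coding genes compared here were not limited by level. The median level was 192 FPKM with such a run and 224 FPKM without. Of the genes with windows printed above, Rplp0 at 1144 FPKM has a run of 7 and Rps3a1 at 1221 FPKM a run of 5. Both runs pass the edge of the window, so only a part of each is printed. Rps10 at 1.86 FPKM has a run of 13 and Rpl7a at 190 FPKM one of 21. Spearman's correlation of FPKM with the run length was −0.14 over 57 genes. The runs describe annotated start sites and not the starts used in these cells.

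Core genes were on 19 chromosomes. Spearman's correlation of FPKM was 0.38 with coding length and −0.06 with the number of copies over the 77 genes.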

How the data were processed

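The authors made RNA-seq libraries from c-kit+ BM cells, of which 1 Ctrl library was used. The deposited values are FPKM, made by the authors. The submitters' processing notes name HISAT2 2.0.5, featureCounts 1.5.0-p3 and mm10, without roles. Annotation release, strandedness and treatment of multi-mapped fragments are not given in the sources used here. Symbols, exon lengths and coordinates came from GENCODE M21 (GRCm38), which lacked 37 gene identifiers.

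FPKM times the length of all exons was a whole multiple of a common step, within 0.01, for 20547 of 21313 genes above 0 (96.4%). Rounded multiples were read as fragments and sum to 17113323, while the step corresponds to a total of 15783891. The recovery was tested on simulated data. Detection was set at 1 FPKM, and 3 fragments gave the limit for a gene at 0. With 1 library no test was run.

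The representative transcript of a gene was its protein-coding transcript with the best APPRIS rank, then CCDS, GENCODE basic, support level, coding length and shortness. It was the first of 4 rules tried. The other 3 were tried after levels scaled by transcript length had been seen, and dropped the support level, replaced it by a RefSeq match, or required 10 bases outside the coding sequence at each end. All 4 are reported. Copies were pseudogenes, or genes with "-ps" symbols, matched by blastn 2.17.0 at 85% identity over 80% of the coding length. Overlap was counted at 50% of the representative transcript.

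Members and lists were chosen with earlier results of these data known. Genes named in full were the 5 highest and 5 lowest of each subunit, paralogs, stalk, ubiquitin fusion and Diamond-Blackfan genes. Some genes of these lists count in the totals and medians and are not reported here singly. Alternatives were other lengths, detection minimums, totals, gene sets and a pseudocount. Computation ran in Python 3.11.15 (scipy 1.17.1, pandas 2.3.3, numpy 2.4.6, biopython 1.88, matplotlib 3.10.9).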

Additional observations from a re-analysis of the deposited data

How the results depend on the processing

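The large subunit median stayed below that of the small subunit under every alternative run here, while the size of the gap moved. Values are given in the order large median, small median, ratio, SD of log2 FPKM and highest over lowest. They were 571, 738, 0.773, 1.53 and 688 with representative transcript lengths, and 193, 248, 0.779, 2.29 and 3346 with every gene of the symbol rule. Without genes whose multiple was not whole, the small median was 313, the ratio 0.678 and the SD 1.67. With a pseudocount of 1 FPKM the SD was 1.56.

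The following alternatives were chosen after seeing the data. The 3 other rules for the representative transcript gave 588, 739, 0.795, 1.46 and 688 without the support level, 490, 718, 0.682, 1.59 and 688 with a RefSeq match, and 588, 739, 0.795, 1.48 and 688 with bases required outside the coding sequence. The overlap of Rps10 ran from 53.6% to 91.6% over the 4 rules, and Rpl13a, Rpl24 and Rps10 were the genes at 50% or more under each. Without these 3 genes the small median was 313, the ratio 0.694, the SD 1.10 and the range 60.0-fold. With fragments of copies added the large median was 244, the ratio 0.833, the SD 1.26 and the range 146-fold.

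The share of core genes was 3.79% of fragments, 7.56% of FPKM without the 10 most abundant genes, 5.83% without mitochondrial genes and 6.07% with copies added, against 5.60%. Detected members were 80 to 85 at other minimums, against 83. With the representative length, 79 of 86 single levels were higher and outside their interval or had none. That direction was fixed by the calculation, since the representative length is never longer than that of all exons. Several orders of single genes turned with the representative length, and those of the highest and lowest genes are given beside them. Causes were not tested beyond what each alternative changes by construction. No paired analysis was possible because 1 library was used. Without replicates, the data limit every statement to this library.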
